A study of Rattus norvegicus with 35 samples.

Results

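The genes described here are 10 that mark the mature white adipocyte: Adipoq, Lep, Retn, Cfd, Fabp4, Lpl, Pparg, Lipe, Plin1 and Cidec. They were chosen by name, as a measure of how much fat pad each mammary gland sample held. All probes whose gene name on the array was one of these symbols, or an older symbol of one, were taken, which gave 12 probes of 41012. All 10 genes passed the filter on dim probes and stand among 16157 genes tested. The perilipin probe carries the older name Plin, and the Cidec probe a locus name. The filter turned on no single group, since all 12 probes were well above background on all 35 arrays.

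The tissue was the left abdominal mammary gland of Sprague-Dawley female offspring at postnatal day 21. Their dams in the treated groups were dosed from gestational day 10 to 21, and no dosing days are given for controls. Each of 7 groups has 5 arrays. In 2 groups the dams received bisphenol A (BPA), a plastics monomer that binds oestrogen receptors, at 250 µg/kg/day, with genistein in the chow (250 mg/kg chow, about 5.5 mg/kg/day) or with indole-3-carbinol (I3C; 2000 mg/kg chow, about 45.0 mg/kg/day). In 2 further groups the same diets went with BPA at 25 µg/kg/day. The remaining groups were BPA at 250 µg/kg/day alone (BPA250), BPA at 25 µg/kg/day alone (BPA25), and negative controls. Genistein is a soy isoflavone and I3C a compound of cruciferous vegetables. No group received either diet without BPA, so each diet is read at a fixed BPA dose. The labels number the replicates but name no animals or litters, so the p-values measure only the spread between these samples.

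The rodent mammary gland is a thin epithelial tree embedded in a fat pad, and RNA of a whole gland before puberty holds much from adipocytes. The nuclear receptor encoded by Pparg, together with C/EBP factors, turns precursor cells into adipocytes and drives most of the genes described here. The mature cell takes up fatty acids that lipoprotein lipase frees from circulating lipoproteins, binds them with fatty acid binding protein, stores them in a droplet coated by perilipin and CIDEC, releases them through hormone-sensitive lipase, and secretes adiponectin, leptin, resistin and adipsin. In bulk tissue, fewer adipocytes and less of a transcript in each adipocyte cannot be told apart.

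What hybridised to the arrays was read by these 60-base probes, given with the position in the files (rat build rn3 in the file headers). They are shown because most of the single-gene results below were read from them, and because the pair for Lipe gave differences of opposite sign; the Lpl, Retn and Cfd probes are not printed.
Adipoq, chr11:79966064-79966123, minus strand: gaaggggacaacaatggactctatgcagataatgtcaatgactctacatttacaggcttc
Lep, chr4:56195117-56196741, plus strand: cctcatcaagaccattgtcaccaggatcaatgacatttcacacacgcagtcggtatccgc
Pparg, chr4:151845021-151845080, plus strand: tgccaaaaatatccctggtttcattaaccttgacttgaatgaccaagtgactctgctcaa
Fabp4, chr2:93481137-93483551, plus strand: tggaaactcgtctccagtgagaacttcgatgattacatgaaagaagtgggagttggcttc
Lipe, brighter probe, chr1:80742983-80743042, minus strand: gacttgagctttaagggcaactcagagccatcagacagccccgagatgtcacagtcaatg
Lipe, other probe, chr1:80750741-80750800, minus strand: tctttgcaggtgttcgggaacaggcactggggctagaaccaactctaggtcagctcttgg
Plin1, chr1:135577441-135577500, minus strand: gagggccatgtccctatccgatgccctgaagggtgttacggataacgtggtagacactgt
Cidec, chr4:149553843-149558968, minus strand: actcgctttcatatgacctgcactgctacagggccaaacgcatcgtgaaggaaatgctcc
The Lep, Fabp4 and Cidec probes span 1625, 2415 and 5126 genomic bases, more than their 60-base length, so their ends lie in different exons of the annotation used for the array.

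Cfd and Retn were too bright to be measured. Retn, which encodes resistin, was saturated on all 35 arrays, with background-subtracted intensities from 37440 to 65370. Cfd, which encodes the serine protease adipsin of the alternative complement pathway, was saturated on 34 of 35 arrays, from 49050 to 78020. The exception was 1 BPA25 array. For these genes both sides of every comparison are saturated, so no fold change is given, and the remaining 8 genes carry the results. Adipoq (adiponectin) and Fabp4 (the cytosolic fatty acid carrier of adipocytes) were each saturated on 3 arrays, and kept their value there. For Adipoq these arrays were BPA250+I3C replicate 2, BPA25+genistein replicate 3 and BPA25 replicate 1, and for Fabp4 they were BPA250+I3C replicate 3, BPA25+genistein replicate 3 and BPA25 replicate 1. The other 6 genes were saturated on 0 arrays. The Adipoq spot of BPA25+genistein replicate 4 was flagged as an outlier and left out, so that group has 4 Adipoq values.

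**Figure D1:**
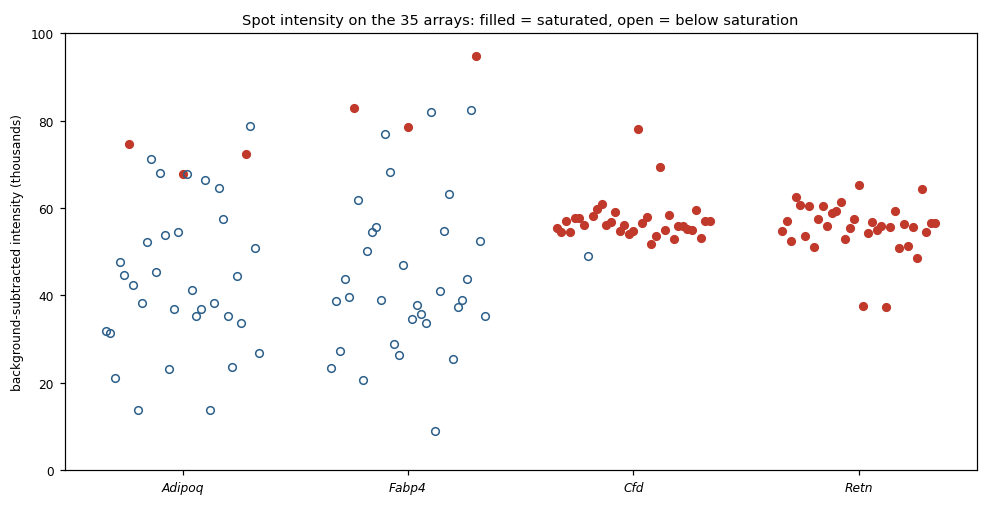
Background-subtracted spot intensity (vertical axis) of Adipoq, Fabp4, Cfd and Retn on each of the 35 arrays, filled where the spot was saturated. Cfd was saturated on 34 arrays and Retn on all 35, against 3 each for Adipoq and Fabp4.

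Levels are given below on the log2 scale relative to the 75th percentile of all probes of an array, so a level is comparable only within 1 gene. The arrays lay on 10 slides, numbered here 1 to 10. Slide 3 stood apart: it held replicate 2 of BPA250, BPA25+genistein, BPA25 and control, and 93.4% to 96.4% of its probes were well above background, against 31.9% to 72.2% on the other 31 arrays. Its 75th percentile was 374.8 to 876 intensity units, against 30.4 to 337.5 elsewhere. That percentile is the zero of the scale used here.

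On the 4 arrays of slide 3 the mean log2 level of the 8 genes was 2.15 to 2.75, against 3.34 to 4.88 on the other 31 arrays. The gap was largest for Lpl, with a mean of 4.32 on slide 3 against 6.74 elsewhere, and smallest for Lep, with -1.42 against -0.55. The brightness before scaling differed less for most of these genes: the median Adipoq intensity was 43890 on slide 3 and 44350 elsewhere, that of Lpl was 11220 and 12510, and that of Plin1 824.2 and 816.2. Pparg, Lipe and Lep were further apart and brighter on slide 3, with medians of 1050, 1206 and 199.9 against 790.4, 732 and 83.42 elsewhere. When arrays were instead centred on the probes well above background on every array, the 8-gene mean was 0.60 to 1.23 on slide 3, against 1.06 to 1.82 elsewhere. In the authors' normalised table it was 10.48 to 11.19 on slide 3 and 11.11 to 12.24 elsewhere. In that table Adipoq differed by -0.0039 between slide 3 and the others and Fabp4 by -0.024. The remaining genes of the 8 were all lower on slide 3, from -0.43 for Lpl to -1.33 for Plin1. Counts and medians of the 8 genes in each comparison are therefore given with and without slide 3 below.

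**Figure D2:**
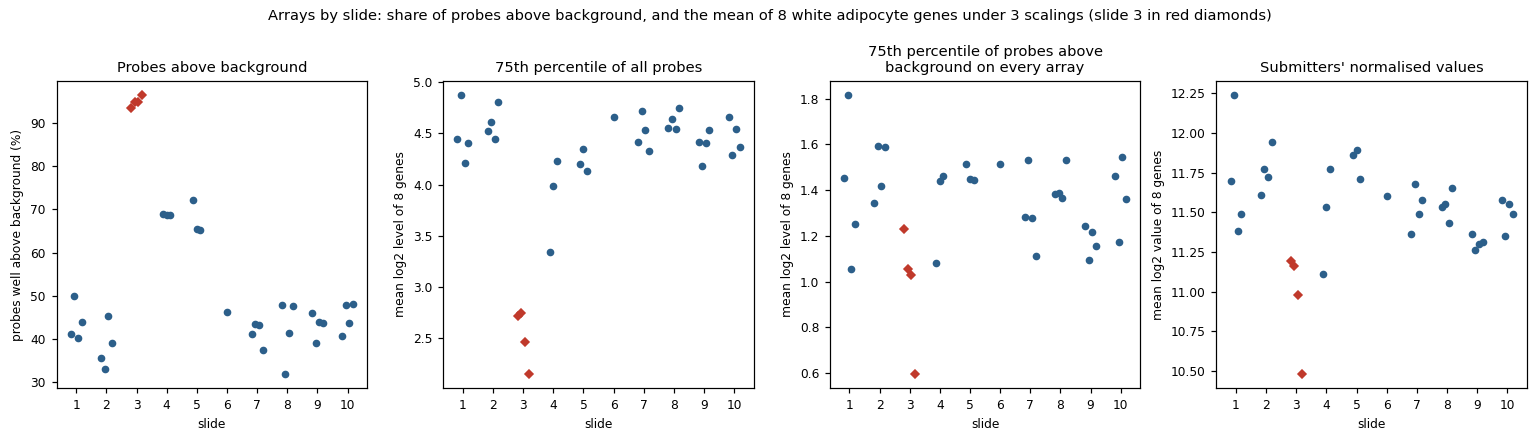
Each point is an array, placed by slide on the horizontal axis. The first panel gives the percentage of probes well above background, and the other 3 the mean log2 value of the 8 adipocyte genes under 3 scalings; slide 3 lies at 93.4% to 96.4% above background and is lowest under the scaling on all probes.

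Slide accounted for 91.9% of the variance of the 8-gene mean, scan day for 54.5%, replicate number for 60.9% and treatment group for 8.51%. Each share was taken alone and is not corrected for its number of levels. Without slide 3 the shares over 31 arrays were 58.9% for slide and 16.1% for group. For single genes the share of slide ran from 64.5% for Lep to 95.2% for Adipoq, and the share of group from 6.65% for Adipoq to 19.1% for Lep.

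No adipocyte gene passed the test among the groups. A moderated F test across the 7 groups (limma, Benjamini-Hochberg over 16157 genes, threshold 0.05) gave 0 of the 8 genes, with an adjusted p of 1 for each, and called 0.00619% of all genes, which is 1 gene. At an unadjusted p under 0.05 it picked 0 of the 8 genes and 4.04% of all genes. In none of the 7 pairwise comparisons did the arrays of 1 group lie clear of those of the other for any of the 8 genes. The matching share of all genes is not given, so this only describes the arrays and does not set these genes apart. Across the 56 differences, log2 fold changes ran from -0.65 to 0.97. The 95% intervals, not adjusted for the number of genes tested, reached 0.99 to either side at the median of these 56. A difference smaller than this half-width leaves 0 inside its interval, and the adjusted threshold is stricter still. Over the 31 arrays outside slide 3 the median half-width was 0.58, the range of fold changes -0.85 to 0.64, and again 0 of the 8 genes passed.

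**Figure D3:**
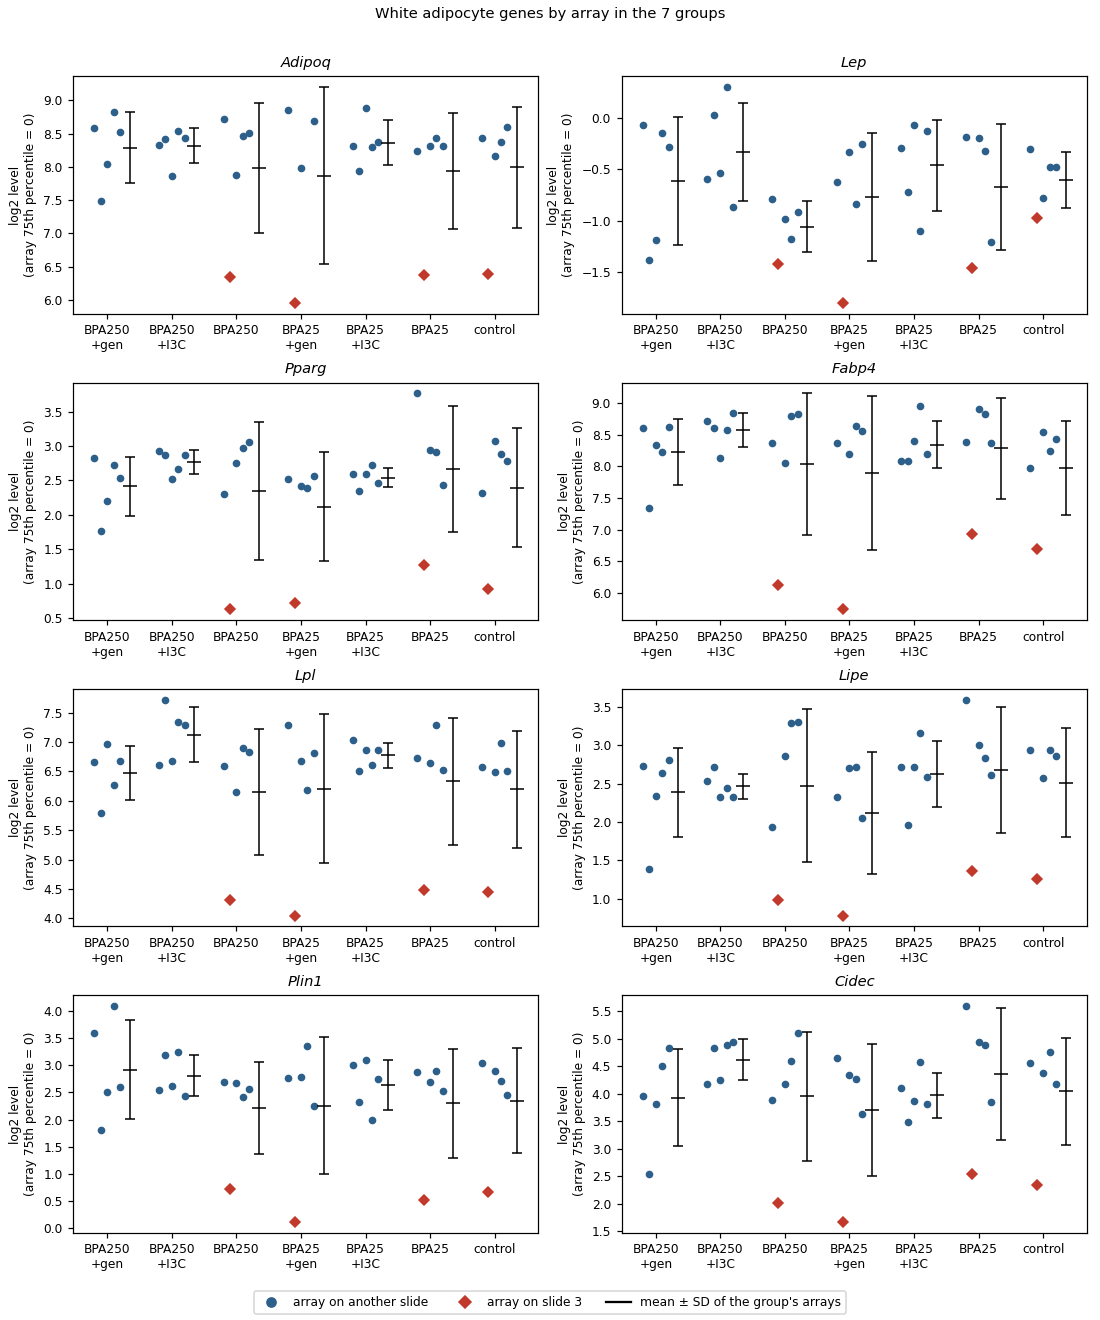
Log2 level relative to the 75th percentile of the array (vertical axis) of 8 adipocyte genes in the 7 groups. Points are arrays, red diamonds those of slide 3, and bars the mean ± SD of the arrays of a group (n = 5, or 4 for Adipoq in BPA25+genistein); the groups overlap for every gene, and slide 3 supplies the lowest array of all 4 groups it holds for every gene.

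Pparg, the receptor that specifies the adipocyte, had log2 levels of 2.30, 0.63, 2.75, 2.97 and 3.06 in BPA250 glands. In BPA25 glands it read 3.76, 1.28, 2.95, 2.92 and 2.43, against 2.31, 0.93, 3.07, 2.89 and 2.79 in controls. The second value in each of these groups is the array of slide 3, and with it set aside the 3 groups cover the same range except for 1 BPA25 array at 3.76. With genistein added, Pparg averaged 2.41 ± 0.43 at BPA250 and 2.12 ± 0.79 at BPA25 (SD, n = 5 each). With I3C added it averaged 2.77 ± 0.17 and 2.54 ± 0.14 in the same order (SD, n = 5 each), the tightest groups for this gene over all arrays, neither of which holds an array of slide 3.

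Among the secreted products, Adipoq had group means close to one another once slide 3 was set aside. It then averaged 8.29 ± 0.53 in BPA250+genistein (n = 5), 8.32 ± 0.26 in BPA250+I3C (n = 5) and 8.39 ± 0.36 in BPA250 (n = 4). The BPA25+genistein mean was 8.51 ± 0.46 (n = 3), the BPA25+I3C mean 8.36 ± 0.34 (n = 5), the BPA25 mean 8.33 ± 0.08 (n = 4) and the control mean 8.39 ± 0.18 (n = 4), all SD. These 7 means lie closer to one another than the arrays of most single groups do. Adiponectin is an insulin-sensitising hormone made almost only by adipocytes.

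Lep encodes leptin, the hormone that signals the size of fat stores. Its probe was dim, at 27.4 to 251.2 intensity units, though well above background on all arrays. In BPA250+I3C glands it read -0.59, 0.03, -0.53, 0.30 and -0.86, against -0.79, -1.42, -0.99, -1.18 and -0.92 in BPA250 glands. Only the lowest BPA250+I3C array reaches into the range of the BPA250 group. BPA250 had the lowest Lep mean of the 7 groups, -1.06 ± 0.25, and controls averaged -0.60 ± 0.27 (SD, n = 5 each). In the remaining groups the Lep mean ran from -0.77 in BPA25+genistein to -0.46 in BPA25+I3C.

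Lpl encodes the lipase that frees fatty acids at the capillary wall. BPA250+I3C glands had 6.61, 7.72, 6.67, 7.33 and 7.29, against 6.59, 4.31, 6.15, 6.90 and 6.83 in BPA250 glands. Leaving out the slide 3 array at 4.31, the BPA250 group ran from 6.15 to 6.90 and overlapped the lower BPA250+I3C arrays. Lpl was highest in BPA250+I3C, with a mean of 7.13 ± 0.47, and averaged 6.20 ± 1.00 in controls, where it was 6.63 ± 0.23 without slide 3 (SD, n = 5, 5 and 4). Fabp4 group means ran from 7.90 in BPA25+genistein to 8.58 in BPA250+I3C, a span of 0.67 against a pooled within-group SD of 0.79.

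Of the droplet genes, Plin1 (perilipin, which shields the droplet from lipases) read 3.59, 1.80, 2.51, 4.09 and 2.59 in BPA250+genistein glands, against 2.70, 0.71, 2.68, 2.42 and 2.56 in BPA250 glands. Its highest values, 4.09 and 3.59, were both in BPA250+genistein, the group whose arrays were also widest apart outside slide 3. Cidec, whose protein fuses droplets into the single large droplet of the white adipocyte, averaged 4.62 ± 0.37 in BPA250+I3C and 3.96 ± 1.18 in BPA250 (SD, n = 5 each). Without slide 3 the BPA250 mean was 4.44 ± 0.53 (n = 4). Lipe, hormone-sensitive lipase, had group means from 2.12 in BPA25+genistein to 2.68 in BPA25.

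In the order of group means BPA250+I3C came first for Lep, Lpl, Pparg, Fabp4 and Cidec, BPA25+I3C for Adipoq, BPA250+genistein for Plin1 and BPA25 for Lipe. BPA25+genistein came last for Adipoq, Fabp4, Pparg, Lipe and Cidec, and BPA250 for Lep, Lpl and Plin1. That order rests on slide 3 for most genes. Outside it BPA250+I3C came first for Lep and Lpl alone, BPA25 for Pparg, Fabp4, Lipe and Cidec, BPA25+genistein for Adipoq and BPA250+genistein for Plin1. BPA250+genistein then came last for Adipoq, Fabp4, Lpl, Pparg, Lipe and Cidec, and BPA250 for Lep and Plin1. Over all arrays, neighbours in the order never differed by as much as the pooled SD. The widest neighbouring gap was 0.35 for Lpl, between BPA250+I3C and BPA25+I3C, against a pooled SD of 0.88.

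BPA25 against control asks whether the lower dose was followed by a difference in these genes. Of the 8 genes 0 passed, against 0% of all genes; at an unadjusted p under 0.05 there were 0 of the 8 and 2.01% of all genes. The log2 fold change was positive for 5 of 8 genes, with a median of 0.15, and for 52.1% of all genes, whose median was 0.01. Cidec differed by 0.32 (95% interval -0.84 to 1.48) and Fabp4 by 0.31 (-0.67 to 1.30), both with an adjusted p of 1 (limma). The slides with arrays of both groups numbered 4, and the median difference of the 8 genes on them was 0.28, 0.06, 0.28 and -0.27. Outside slide 3, 6 of 8 genes were positive and the median was 0.17, while normexp background correction gave 0 of 8 and -0.07.

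BPA250 against control gave 0 of 8 genes and 0% of all genes at the adjusted threshold, and 0 of 8 and 0.99% without adjustment. Of the 8 fold changes 1 was positive, that of Fabp4, as were those of 41.7% of all genes. The median of the 8 was -0.05 and that of all genes -0.03. This count was unsteady: 3 of 8 were positive outside slide 3, with a median of -0.0082, 5 of 8 in the authors' values, with 0.03, and 7 of 8 with scan day as a block, with 0.18. Lep had the smallest unadjusted p of the 8, 0.169, with a difference of -0.45 (95% interval -1.11 to 0.20, adjusted p of 1 in limma). On each of the 3 slides holding both groups Lep was lower in BPA250, with differences of -0.48 to -0.39, and blocking on slide gave -0.53 (-0.99 to -0.08, adjusted p of 1 in limma).

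BPA250 against BPA25 also called 0 of 8 genes and 0% of all genes, and without adjustment 0 of 8 and 1.68%. The fold change was positive for 1 of 8 genes, Adipoq, and for 44.1% of all genes, with medians of -0.23 and -0.04. The furthest was Cidec at -0.41 (95% interval -1.56 to 0.75). Within each of the 3 shared slides the median difference of the 8 was negative, between -0.39 and -0.16, over single arrays. Outside slide 3, 1 of 8 was positive and the median was -0.17, and with scan day as a block 5 of 8 and 0.04.

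Genistein added to BPA25 was read against BPA25 alone. No adipocyte gene passed, against 0.00619% of all genes, and without adjustment 0 of 8 passed against 4.73%. Genistein gave a positive fold change for 0 of 8 genes and for 53.7% of all genes. The median of the 8 was -0.26, with the furthest values for Cidec, -0.65 (95% interval -1.81 to 0.50), Lipe, -0.56 (-1.44 to 0.31), and Pparg, -0.55 (-1.43 to 0.34), each with an adjusted p of 1.00 (limma). Without slide 3 the Pparg difference was -0.54 (-1.04 to -0.04, adjusted p 0.399 in limma), Adipoq and Plin1 were positive, and the median of the 8 was -0.12. On slide 3, 0 of the 8 genes were higher with genistein, and on slide 7, the other slide with both groups, 1 of 7. The sign of the median turned under normexp, with 4 of 8 positive and 0.06, and with scan day as a block, with 4 of 8 and 0.02.

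Genistein added to BPA250 gave 0 of 8 genes and 0% of all genes, and without adjustment 0 of 8 and 4.21%. The fold change was positive for 6 of 8 genes, against 58% of all genes, and its median was 0.25, against 0.07 for all genes. Plin1 differed by 0.70 (95% interval -0.38 to 1.79) and Lep by 0.44 (-0.21 to 1.10). Outside slide 3 the sign of the median turned: it was -0.22, and 2 of 8 genes, Lep and Plin1, remained positive. The median of all genes turned as well, to -0.12, so the turn was not particular to the adipocyte genes. On both slides that held the pair the median difference was -0.19.

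I3C added to BPA25 gave 0 of 8 genes against 0.0124% of all genes, and without adjustment 0 of 8 against 4.33%. The fold change was positive for 5 of 8 genes and for 65.7% of all genes, and both medians were 0.13. Lpl differed by 0.44 (95% interval -0.64 to 1.52) and Cidec by -0.39 (-1.55 to 0.76). Outside slide 3 the median was -0.20, 2 of 8 genes were positive, and Cidec differed by -0.85 (-1.59 to -0.11, adjusted p 0.472 in limma). Slide 9 alone held both groups, and there 6 of 8 genes were higher with I3C, with a median difference of 0.20 and Cidec at 0.73, over 1 array each.

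I3C added to BPA250 had the highest median fold change of the 7 comparisons over all 35 arrays, but not outside slide 3, where it was 0.12 and that of BPA25 against control 0.17. Of the 8 genes 0 passed, against 0% of all genes, while 1 of 8 had an unadjusted p under 0.05, against 4.33% of all genes. The fold change was positive for 7 of 8 genes and for 69.8% of all genes. The median was 0.57 for the 8 genes and 0.24 for all genes, so the differences are also given relative to the median of all genes. Scaled on the probes above background on every array, the median was 0.17 for the 8 genes, 6 of them positive, and -0.16 for all genes. Lep differed by 0.73 ± 0.32 (SE; 95% interval 0.07 to 1.38, unadjusted p 0.0313, adjusted p 0.766 in limma) and Lpl by 0.97 ± 0.53 (-0.11 to 2.05, adjusted p 0.766). Relative to the median of all genes these differences were 0.49 and 0.73. Cidec, Plin1 and Fabp4 differed by 0.66, 0.59 and 0.54, each with an adjusted p of 0.766, and Lipe by -0.01.

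BPA250 has an array on slide 3 and BPA250+I3C has none. Outside slide 3, 5 of 8 genes were positive and the median was 0.12, with Pparg at -0.0039 and Adipoq at -0.07. Lep was at 0.64 (95% interval 0.05 to 1.23) and Lpl at 0.51 (-0.02 to 1.04), both with an adjusted p of 1 (limma). With slide as a fixed block, Lep was 0.62 (0.13 to 1.11) and Lpl 0.57 (0.12 to 1.02), with adjusted p of 0.649 each. The other Lpl probe gave 0.95 over all arrays, close to the 0.97 of the brighter one. Slide 1 alone held both groups, with 6 of 8 genes higher with I3C there and a median difference of 0.24 over 1 array each. On that slide Lep differed by 0.19 and Lpl by 0.02, less than in the fits above.

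**Figure D4:**
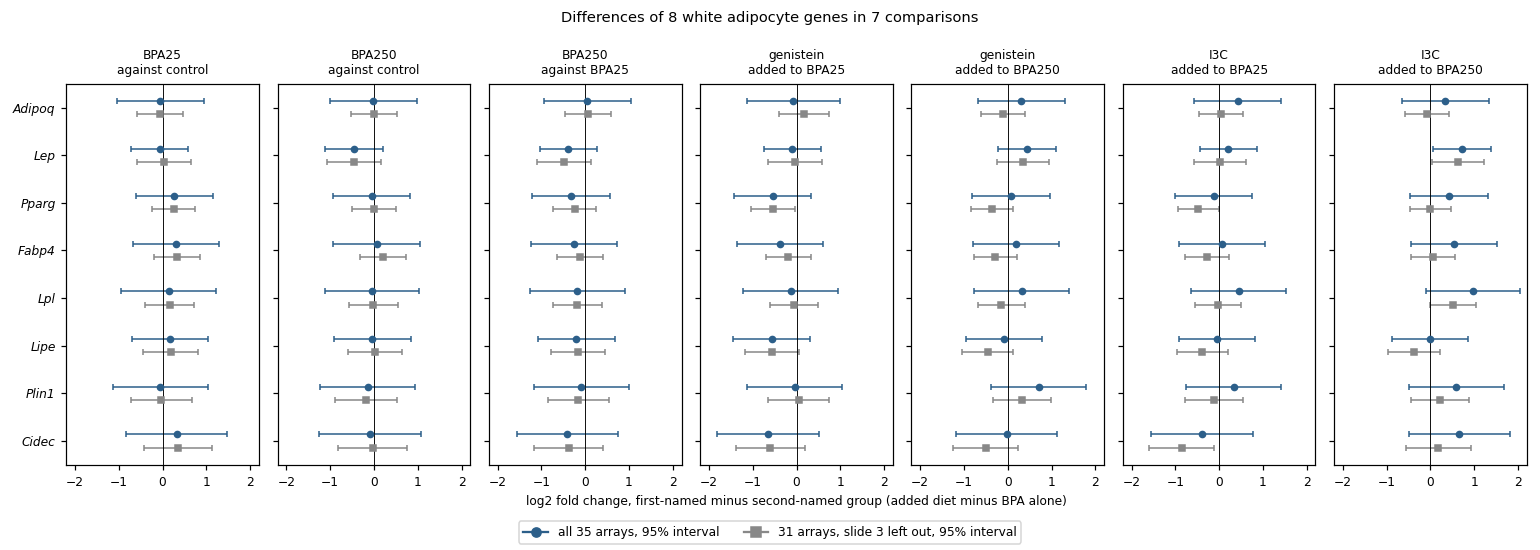
Log2 fold changes of 8 adipocyte genes with 95% intervals (horizontal axis) in 7 comparisons, over all 35 arrays (blue circles) and over the 31 arrays outside slide 3 (grey squares). Every interval of the 35-array fit includes 0 except that of Lep for I3C added to BPA250, 0.07 to 1.38.

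Whether a diet acted differently at each BPA dose was tested as an interaction. For genistein the difference of effects, BPA250 minus BPA25, was positive for 8 of 8 genes, with a median of 0.56, against 0.05 for all genes. Outside slide 3 it was positive for 5 of 8, with a median of 0.09 against -0.19 for all genes. Under normexp it was positive for 5 of 8, with 0.16 against 0.06. It passed for 0 of 8 genes and 0% of all genes, and without adjustment for 0 of 8 and 1.16%. For I3C it was positive for 7 of 8 genes over all arrays, with a median of 0.50 against 0.10 for all genes. Outside slide 3 it was again positive for 7 of 8, with 0.41 against 0.05. It passed for 0 of 8 and 0% of all genes, without adjustment for 0 of 8 and 3.16%. The furthest was Cidec, at 1.06 ± 0.80 (SE) for I3C, with an adjusted p of 1.00 (limma).

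The pair of Lipe probes lies 7758 bases apart, and their levels correlated at 0.64 across the 35 arrays and at 0.25 across the 31 outside slide 3. They also gave differences of opposite sign in 6 of the 7 comparisons. For genistein added to BPA250 the probe used in the fit gave -0.09 and the other 0.67. For genistein added to BPA25 they gave -0.56 and 0.22, and for I3C added to BPA25 -0.05 and 0.61. The Lpl probes, 530 bases apart, correlated at 0.92 over all arrays and 0.67 outside slide 3, and gave 0.97 and 0.95 for I3C added to BPA250. A statement on Lipe therefore holds for 1 probe at a time.

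**Figure D5:**
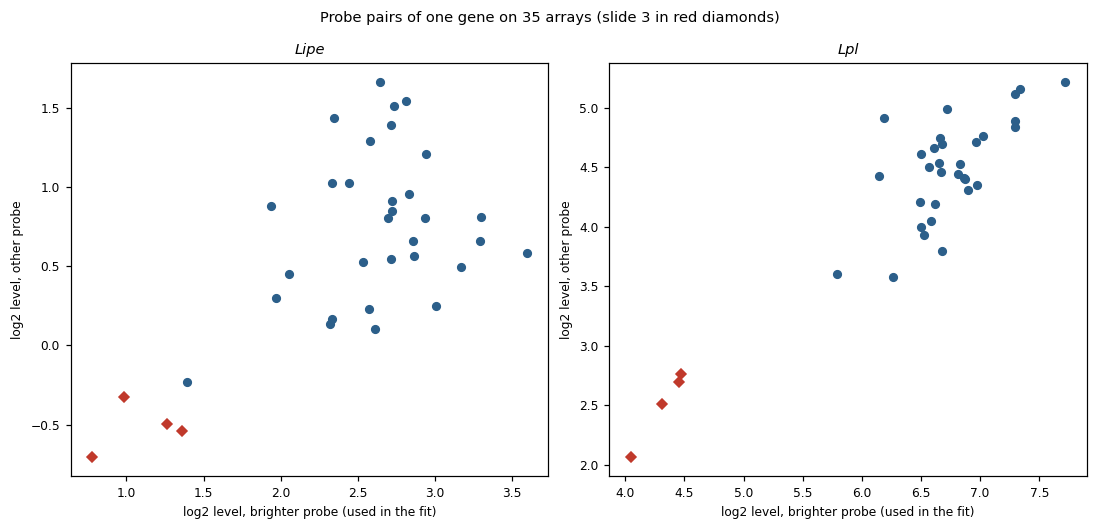
Log2 level of the other probe (vertical axis) against the brighter probe (horizontal axis) of Lipe and Lpl on the 35 arrays, with slide 3 as red diamonds. The Lpl pair rises together, at 0.92 over all arrays, while the Lipe pair outside slide 3 is scattered, at 0.25.

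The adipocyte genes varied together from array to array. The correlation of a gene with the mean of the other genes (Pearson, 35 arrays that share their scaling and slides, a description with no test) ran from 0.69 for Lep to 0.93 for Pparg. Outside slide 3 it ran from 0.41 for Plin1 to 0.78 for Cidec, and with slide means taken off from 0.18 for Adipoq to 0.75 for Cidec (34 arrays). Saturated Retn and Cfd gave 0.01 and -0.04 by the last measure. The genes most like the 8-gene mean as normalised were Creld1, Acp2, Srp72, C20h6orf89, Mocs2, Psmd11, Hdlbp and Paics, at 0.96 to 0.97, none of which is on a list of adipocyte genes. With slide means taken off, the nearest were Creld1, at 0.82, Eif5-ps1, Grina, Sbds and Mgll, beside array sequences without a gene name, down to 0.77. Mgll encodes monoglyceride lipase, which completes the breakdown of stored fat, and correlated at 0.78.

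Promoter windows, 250 bases before to 50 after the start site, were held by RefSeq (GRCr8) for 7 of the 10 genes, with 2 windows for Pparg, and not for Fabp4, Lpl and Lipe. The C/EBP core TTGCNNAA, on either strand, was found in 4 of these 8 windows, those of Plin1, Lep, Cidec and Pparg, and in 10.6% of all 33469 promoters. CCAAT, on either strand, was found in 4 of 8, against 37.5%, and TATAAA in 1 of 8, against 14.2%. The direct repeat of the nuclear receptor half-site with a spacing of 1 base, which PPARγ binds with RXR, was found in 0 of 8, against 0.0538%. No C/EBP core overlapped a CCAAT match. The windows below show the C/EBP core in capitals in a hormone gene and in both droplet genes, and a match is a description of these letters.
Lep, chr4:58626288-58626587, plus strand: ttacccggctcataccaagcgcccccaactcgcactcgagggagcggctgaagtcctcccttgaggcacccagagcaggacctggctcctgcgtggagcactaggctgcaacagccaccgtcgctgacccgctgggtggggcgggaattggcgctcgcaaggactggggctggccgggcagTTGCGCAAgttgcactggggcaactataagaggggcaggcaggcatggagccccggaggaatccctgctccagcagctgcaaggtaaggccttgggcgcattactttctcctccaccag
Cidec, chr4:148137066-148137365, minus strand: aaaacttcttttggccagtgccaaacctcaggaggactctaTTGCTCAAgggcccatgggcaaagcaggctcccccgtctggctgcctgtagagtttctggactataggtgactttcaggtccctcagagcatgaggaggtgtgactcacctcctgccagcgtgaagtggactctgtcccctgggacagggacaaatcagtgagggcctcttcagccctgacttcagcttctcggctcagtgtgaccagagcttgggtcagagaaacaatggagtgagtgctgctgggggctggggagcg
Plin1, chr1:143086099-143086398, minus strand: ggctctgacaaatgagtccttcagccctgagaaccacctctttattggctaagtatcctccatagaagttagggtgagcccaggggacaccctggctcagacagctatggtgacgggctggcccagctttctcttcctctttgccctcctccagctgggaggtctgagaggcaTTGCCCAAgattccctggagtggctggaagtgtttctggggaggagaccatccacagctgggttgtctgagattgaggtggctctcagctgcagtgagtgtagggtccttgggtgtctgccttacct
The core begins 69 bases before the start site of Lep, 209 before that of Cidec and 77 before that of Plin1.

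Further genes of the same pathways were read from 6 lists, with medians over all arrays unless stated. In each list 0 genes passed in either direction in any of the 7 comparisons, over all arrays or outside slide 3. Adipogenic transcription factors (9 genes tested, among them Cebpa, Cebpd, Ebf1 and Nr1h3) had list medians from -0.03 to 0.49. Fatty acid uptake (7 tested) had medians from -0.54 to 0.53, with the smallest F test p for Vldlr, a lipoprotein receptor, at 0.00557 (adjusted p 0.608, limma). Vldlr was well above background on only 18 arrays, the fewest of any gene in this list. It differed by -1.22 ± 0.36 (SE) for genistein added to BPA250. There it passed with slide as a random block (adjusted p 0.0325, limma) and on bright-probe scaling with slide as a fixed block (adjusted p 0.0444, limma). Fabp5 and Acsl1 differed by 1.40 ± 0.52 and 1.11 ± 0.47 for I3C added to BPA250.

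Triglyceride synthesis and droplet genes (13 tested) had a positive fold change in 13 of 13 for I3C added to BPA250, with a median of 0.62 against 0.24 for all genes. Outside slide 3 the fold change was positive in 8 of 13, with a median of 0.10, and in 9 of 13 under quantile normalisation, bright-probe scaling and the authors' values. Gpam, the first enzyme of glycerolipid synthesis, differed over all arrays for I3C added to BPA250 by 0.93 ± 0.45, Gpd1 by 1.02 ± 0.56 and Scd, the desaturase, by 1.64 ± 0.74 (SE). For genistein added to BPA25 the same list was positive in 2 of 13, with a median of -0.68, and outside slide 3 in 2 of 13, with -0.51. Lipolysis genes (9 tested) had medians from -0.34 to 0.61, and Npr3, a natriuretic peptide receptor, differed by 1.06 ± 0.32 (SE) for I3C added to BPA250, beside G0s2 and Pde3b at 0.20 and 0.61. Insulin response genes (6 tested, among them Insr and Irs1) had medians from -0.02 to 0.41, and further secreted products and adipokine receptors (7 tested, led by Apln, Adipor1 and Agt) from -0.37 to 0.50.

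Markers of other cells bear on how much of each sample was fat pad. Skeletal muscle markers (11 tested, led by Myh7, Acta1 and Mb) spanned far more than the adipocyte genes: the per-array mean ran from -2.71 to 2.38 in BPA250+I3C, from -2.43 to 2.26 in BPA250+genistein, from -1.77 to 2.44 in BPA250, from -2.52 to 4.26 in BPA25+genistein, from -2.44 to 6.06 in BPA25+I3C, from 1.41 to 5.24 in BPA25 and from 3.28 to 6.26 in controls. The 4.26 and the 1.41 are arrays of slide 3, outside which this mean ran from -2.52 to -0.10 in BPA25+genistein and from 4.64 to 5.24 in BPA25. All 11 had a negative fold change in 6 of the 7 comparisons, the exception being BPA25 against control, and 0 passed (limma). In that one 5 of 11 were positive over all arrays and 11 of 11 outside slide 3, with medians of -0.05 and 0.42. Outside slide 3, Myh7 (-6.55, adjusted p 0.0117), Myh2 (-8.32, adjusted p 0.0305) and Mb (-2.86, adjusted p 0.0386) passed for genistein added to BPA25, and Mb for I3C added to BPA25 (-3.05, adjusted p 0.0268), all in limma. Fibroblast and preadipocyte markers (7 tested) had group means from 5.33 to 5.81, and slide 3 differed from the other arrays by -1.95 in them and by -1.90 in the adipocyte genes. Luminal epithelial markers (7 tested) averaged 0.05 ± 0.52 in BPA250+I3C against 0.58 ± 0.33 in BPA250, and -0.57 ± 1.32 in BPA25+I3C against 0.52 ± 0.91 in BPA25. Their mean was 0.22 ± 0.51 in BPA250+genistein, 0.47 ± 0.30 in BPA25+genistein and 0.76 ± 0.49 in controls (SD, n = 5 for each of these groups). Of the brown adipocyte markers, 5 were tested and Ucp1 was above background on 28 arrays. Ucp1 differed by 2.89 ± 0.84 (SE) for I3C added to BPA250, with an F test adjusted p of 0.552 (limma). The other brown markers were split: Cpt1b was also higher, by 1.27 ± 0.48 (SE), while Cidea differed by 0.11, Dio2 by -0.19 and Cox8b by -1.06. The median of the brown list was 0.11 there, against 0.24 for all genes. Markers of basal epithelium, milk protein, endothelium, macrophages, T cells, B cells, Schwann cells and erythroid cells also had 0 genes passing in each comparison over all arrays. With slide as a random block the erythroid gene Alas2 passed for I3C added to BPA250 (2.44, adjusted p 0.0214 in limma). The part of these cells in the adipocyte values was not tested.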

How the data were processed

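RNA of 35 mammary glands was hybridised to 1-colour (Cy3) Agilent 4x44K rat arrays, 150 ng each per the labels' protocols. Per the file headers, the processed signal is an intensity after local background subtraction by Agilent Feature Extraction 9.5.3.1, the mean signal and its background are uncorrected intensities, and deposited flag columns (other values) mark saturated spots, outliers and signal well above background. A series table on the log2 scale was also deposited by the authors, with column medians of 6.55 to 6.58; its method is not given in the sources used here.

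The log2 of each processed signal was set against its array's own 75th percentile, outlier spots were left out, and spots of a probe were averaged. A probe was kept when well above background on at least 4 of 5 arrays of 1 group and missing on at most 5. The brightest probe stood for each gene. Of the 41012 probes, 21252 were named through RefSeq and 19760 kept the array's name. The number of arrays limits the precision.

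Group means were fitted to all arrays without covariates with limma 3.58.1 in R 4.3.3, with Benjamini-Hochberg adjustment over 16157 genes. Intervals are 95%. All 10 genes were described throughout; the 8 genes with the highest correlation with them were named, and from each list the genes that passed, or those with the smallest F test p. The genes and lists were chosen with earlier results of these data known. The fit was tested on simulated data with independent noise on each array and no slide effect. That simulation therefore does not cover the slide differences described above. Alternatives changed the background correction, scaling, filter, probes, slide, scan day, replicate block, arrays and single replicates.

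Replicate numbers come from the labels. Deviations of same-numbered arrays from their group means correlated above 0.1 in all 5 pairs for BPA25 against control (lowest 0.124) and for genistein added to BPA250 (lowest 0.233). Those arrays partly share slides (3 and 2 of 5 pairs). In the other comparisons 3 or 4 of 5 pairs were above 0.1, and the lowest pair ran from -0.211 to 0.0552. Whether the numbers pair animals was not tested, and the main fit takes no account of them. No 2 arrays held identical values.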

Additional observations from a re-analysis of the deposited data

Results flagged for a closer look

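In 13 of the 56 sets of 1 gene in 1 group, a single array lay far from the other 4 by Dixon's test, which about 5% of sets exceed by chance. All 13 were replicate 2 arrays on slide 3, and all lay below the others of their group. In BPA250 they were Fabp4, at 6.12, and Plin1, at 0.71. In BPA25+genistein they were Fabp4, at 5.74, and Pparg, at 0.72. In BPA25 they were Adipoq, at 6.38, Fabp4, at 6.93, Lpl, at 4.47, and Plin1, at 0.52. In controls they were Adipoq, at 6.39, Lpl, at 4.45, Lipe, at 1.26, Plin1, at 0.67, and Cidec, at 2.35. On the other scalings the same check marked fewer sets: 4 in the authors' table, 3 of them on slide 3, and 7 each with centring on probes above background everywhere, with quantile normalisation and with normexp correction, of which 3, 4 and 5 were on slide 3. The interaction tests called 0 of the 8 genes.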

How the results depend on the processing

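The count of adipocyte genes passing stayed at 0 of 8 in every pairwise comparison and both interactions under 51 alternatives, and in the F test under the 50 that apply to it; 2 of them were chosen after seeing the data. The lowest adjusted p of any of the 8 genes over these alternatives was 0.283 in the comparisons and interactions, without slide 3 and with scaling on bright probes, and 0.235 in the F test, for Lpl with slide as a fixed block (limma). Signs were less settled. Of 72 differences per alternative, the sign turned in 18 with normexp, 17 without slide 3, 17 with scan day as a block, 16 without slide 3 on the bright-probe scaling, 15 each with the authors' values and slide as a fixed block, 13 each with slide as a random block and with bright probes and slide, 12 with quantile normalisation and 9 with bright-probe scaling. For the median of the 8 genes the sign turned in 8 of 16 for I3C added to BPA25, 5 for genistein added to BPA250, 3 for BPA250 against control, 2 for genistein added to BPA25, 1 each for BPA25 against control and BPA250 against BPA25, and 0 for both interactions and for I3C added to BPA250, where it ran from 0.05 to 0.62. Leaving out each array in turn, that median ran from 0.12 to 0.71, the value without BPA250 replicate 2 being the lowest, and kept its sign in both interactions (0.12 to 0.92 for genistein, 0.04 to 0.77 for I3C). It turned sign in the other 6 comparisons: -0.16 to 0.55 for BPA25 against control, -0.45 to 0.39 for BPA250 against control, -0.59 to 0.20 for BPA250 against BPA25, -0.66 to 0.16 and -0.22 to 0.45 for genistein added to BPA25 and to BPA250, and -0.20 to 0.27 for I3C added to BPA25.

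Counts over all genes moved more. The F test called 1 gene, against 0 with normexp, the authors' values, no filter, the strict filter, outliers kept or probe means, 2 with quantile or bright-probe scaling, 5 with slide and 9 with scan day as fixed blocks, 136 with slide as a random block, 25 without slide 3, 67 without slide 3 on bright probes and 25 with bright probes and slide. Genistein added to BPA25 called 1, against 0 with normexp, bright probes, the authors' values, both filters, outliers kept, slide as a fixed block or the pair's arrays alone, 2 with scan day, 19 without slide 3 and 9 without it on bright probes. I3C added to BPA25 called 2, against 0 with normexp, the authors' values, both filters, outliers kept or slide as a fixed block, with or without bright probes, 1 with quantile, bright probes or the pair's arrays alone, 5 with scan day, 4 with the replicate block, 9 without slide 3 and 7 without it on bright probes. Genistein added to BPA250 called 0, against 1 with the authors' values, 4 with slide as a fixed and 79 as a random block, 1 without slide 3 on bright probes and 81 with bright probes and slide. I3C added to BPA250 called 0, against 2 with the random block, and BPA250 against BPA25 called 0, against 4 without slide 3 and 1 without it on bright probes. The genistein interaction called 0, against 1 with bright probes, the random block or the replicate block and 3 without slide 3 on bright probes, and the I3C interaction 0, against 1 with slide, 8 with the random block and 4 without slide 3 on bright probes. Without single arrays the F test ran from 0 to 65, genistein added to BPA25 from 0 to 7, I3C added to BPA25 from 0 to 22 and BPA250 against BPA25 from 0 to 1. The highest F count came without BPA25+I3C replicate 4. The cause of these moves was not tested. The replicate block changed no call of an adipocyte gene, with a lowest adjusted p of 0.315 (limma).

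Brightness limits Retn and Cfd at the top of the range and Lep at the bottom.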
